A study of Mus musculus with 4 samples.

Results

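Kcnq1, Kcne1, Bsnd and Esrrb are genes of the strial marginal cell, the epithelial cell that secretes potassium into the endolymph of the cochlea. These 4 genes were taken by symbol from the 20777 rows of each deposited expression table, all 4 had values among the 17816 rows that held one, and all 4 passed the expression filter that left 13966 genes. RNA was sequenced from whole cochleae of C57BL/6 mice at postnatal day 10, in 2 wild-type and 2 Zbtb20 knockout libraries, so the comparison asks how loss of this zinc finger transcription factor alters cochlear transcripts. The wild-type libraries are labelled Zbtb20 +/+ and the knockout libraries Zbtb20 F/F, and both genotypes carry a Cre driver. That driver is written FoxG2-cre for replicate 2 and FoxG3-cre for replicate 3 of either genotype, and the labels do not say in which cochlear cells it acts. Since no label says that each library stands for its own animal, the p-values reflect the spread among these libraries, which may be technical.

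Marginal cells line the endolymph side of the stria vascularis. Sodium-potassium pumps and the cotransporter NKCC1, encoded by Slc12a2, load potassium across their basolateral membrane. The potassium leaves through the apical channel made of KCNQ1, the pore-forming subunit, and KCNE1, a small single-pass subunit that slows the channel's opening. Chloride that enters with NKCC1 leaves again through basolateral chloride channels that need the accessory subunit barttin, encoded by Bsnd. Esrrb encodes an orphan nuclear receptor of these cells, and mice that lack it have defects of marginal cells and of endolymph. Human mutations in each of the 4 genes cause hearing loss.

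Zbtb20, the targeted gene, was measured at 10.94 and 10.67 FPKM (fragments per kilobase of transcript, relative to the library's total) in wild-type replicates 2 and 3, and at 7.35 and 7.41 FPKM in knockout replicates 2 and 3. Values for a genotype are given below in that order of replicates. The groups did not overlap, and the gene remained well above 0 in both knockout libraries. Its log2 fold change was -0.49 ± 0.08 (SE, n = 2 per group, adjusted p = 0.0394, limma), and the labels do not name the deleted part of the gene. Leaving out any 1 library ended the call (adjusted p = 0.083 to 0.316).

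Kcnq1, at 143106362 to 143427042 of chromosome 7 (GRCm38, plus strand), encodes the pore-forming subunit of the apical potassium channel. Its level was 13.64 and 12.42 FPKM in wild-type libraries and 26.2 and 22.46 FPKM in knockout libraries. Both knockout libraries lay above both wild-type libraries. Kcnq1 rose 1.87-fold in mean FPKM, with a log2 fold change of 0.85 ± 0.1 (SE, 95% interval 0.59 to 1.11, adjusted p = 0.0194, limma on log2(FPKM + 1)). The antisense transcript Kcnq1ot1 shares 121 of the 4093 annotated exon bases of Kcnq1 (2.96%), and strand use is a step not given in the sources used here.

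Kcne1, the gene of the accessory subunit of that channel, is at 92345982 to 92359468 of chromosome 16, minus strand. Wild-type replicates 2 and 3 held 8.49 and 7.5 FPKM, and knockout replicates 2 and 3 held 26.36 and 24.6 FPKM. The gap between the groups was many times the gap between replicates. Kcne1 rose 3.19-fold, with a log2 fold change of 1.56 ± 0.09 (95% interval 1.32 to 1.79, adjusted p = 0.00448, limma).

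Bsnd, the barttin gene, at 106483456 to 106492283 of chromosome 4 (minus strand), was the lowest of the 4 genes. Wild-type libraries held 0.79 and 0.82 FPKM of it, against 4.0 and 3.08 FPKM in the knockout libraries. These values correspond to an estimated 39 and 42 fragments and 199 and 163 fragments, so counting alone gives an error of 16.0% and 15.4% in the wild type and of 7.1% and 7.8% in the knockout. Even at that depth the groups stood clearly apart. Bsnd rose 4.4-fold in mean FPKM, and its log2 fold change of 1.32 ± 0.14 (adjusted p = 0.0134, limma) is smaller than that ratio implies because 1 is added to each FPKM.

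Esrrb, at 86361117 to 86521628 of chromosome 12 (plus strand, 6 annotated transcripts), showed the largest log2 fold change of the 4 genes. The wild-type libraries had 4.9 and 4.16 FPKM, and the knockout libraries 23.04 and 18.44 FPKM. Neither knockout library came near the wild-type range. Esrrb rose 4.58-fold, with a log2 fold change of 1.97 ± 0.14 (95% interval 1.63 to 2.31, adjusted p = 0.00641, limma), which was rank 21 of all genes tested in order of log2 fold change.

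**Figure D1:**
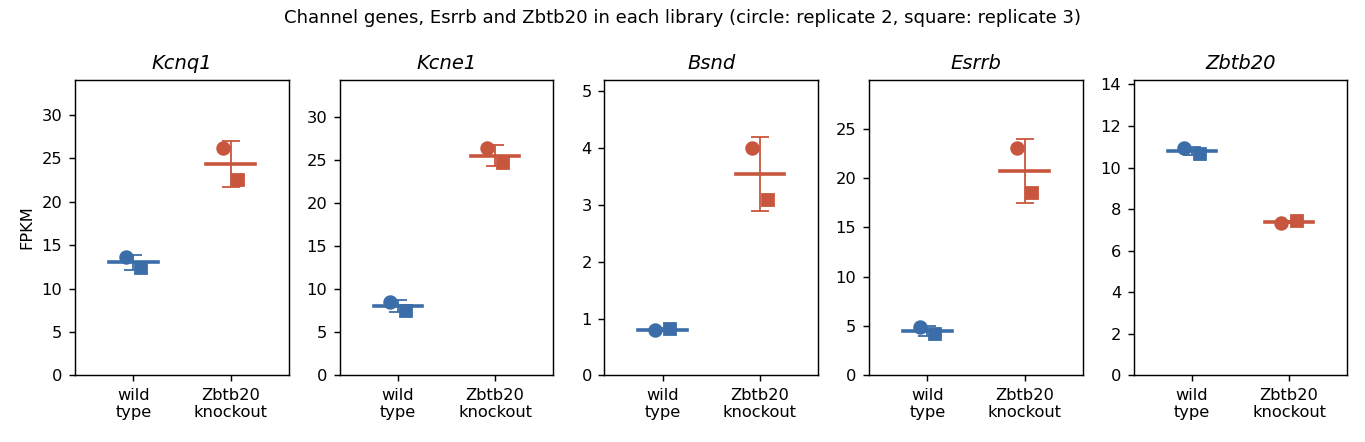
Level of each of the 4 genes and of Zbtb20 in FPKM (vertical axes start at 0) in wild-type (blue) and Zbtb20 knockout (red) libraries; points are libraries, bars the mean and error bars the SD of 2 libraries. Kcnq1, Kcne1, Bsnd and Esrrb lie higher in both knockout libraries, and Zbtb20 lies lower.

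All 4 genes were therefore called higher, where 2.38% of all 13966 genes tested were called higher and 37.9% had both knockout libraries above both wild-type libraries. In bulk tissue, more cells of a type and more RNA per cell cannot be told apart. In FPKM the wild-type order was Kcnq1, Kcne1, Esrrb and Bsnd. In the knockout, Kcne1 (25.48 ± 1.25 FPKM, SD) and Kcnq1 (24.33 ± 2.65 FPKM) were close, at 26.36 against 26.2 and 24.6 against 22.46 FPKM. Esrrb (20.74 ± 3.25 FPKM) came next, and Bsnd (3.54 ± 0.65 FPKM) stayed far below. Kcnq1 was above Esrrb within both knockout libraries, at 26.2 against 23.04 and 22.46 against 18.44 FPKM. In the wild type Kcnq1 (13.03 ± 0.86 FPKM) was well above Esrrb (4.53 ± 0.52 FPKM).

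Knockout replicate 2 was above knockout replicate 3 for 4 of the 4 genes, although 44.6% of all genes tested were higher in that library. Wild-type replicate 2 was above wild-type replicate 3 for 3 of the 4, the exception being Bsnd, and for 47.5% of all genes tested. With either knockout library left out, none of the 4 kept its call: adjusted p ran from 0.104 to 0.194 without replicate 2 and from 0.08 to 0.135 without replicate 3, and the log2 fold changes stayed between 0.74 and 2.12. Of all genes tested, 1 was called without either of these libraries. All 4 kept their calls without either wild-type library, and Kcnq1 lost its call without the filter on low values (adjusted p = 0.0525).

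The subunits of the potassium channel rose by different factors. The ratio of Kcne1 to Kcnq1 FPKM was 0.622 and 0.604 in wild-type libraries against 1.01 and 1.1 in knockout libraries. Transcripts of the accessory subunit were fewer than those of the pore subunit in both wild-type libraries and about as many in both knockout libraries. The log2 ratio was 0.78 higher in the knockout, with no overlap between the groups (exact permutation test, two-sided, p = 0.333, the smallest that 2 against 2 libraries allow).

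**Figure D2:**
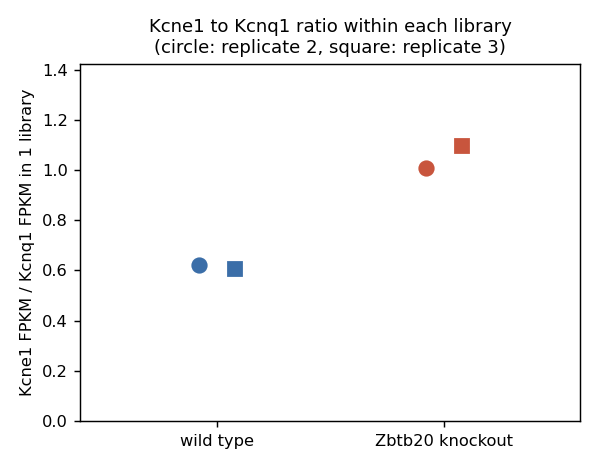
Ratio of Kcne1 FPKM to Kcnq1 FPKM within each library (vertical axis from 0, no unit), wild type in blue and knockout in red, 1 point per library. Both wild-type points (0.622 and 0.604) lie below both knockout points (1.01 and 1.1).

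Relatives of the 4 genes were read from fixed lists. The shares called over all genes tested were 2.38% higher and 2.04% lower, at which short lists often hold no call. For chloride transport, 8 genes of ClC channels and exchangers and of their subunit Ostm1 were read, of which 7 were tested and Clcn1 was below the filter at 0 to 0.31 FPKM. None passed in either direction, and their median log2 fold change was -0.1 beside 0.06 for all genes tested. Clcn2, Ostm1 and Clcn4, those with the smallest p, were at -0.23 ± 0.1, -0.13 ± 0.08 and -0.12 ± 0.13. Among KCNQ potassium channel genes, the neuronal Kcnq3 did not pass, at -0.01 ± 0.18, and Kcnq5 was below the filter at 0.09 to 0.18 FPKM. None of the 4 other KCNE subunit genes passed (0 higher, 0 lower, median 0.03). Kcne4 came nearest at 16.56 and 19.16 against 25.42 and 24.84 FPKM (log2 fold change 0.47 ± 0.09, adjusted p = 0.0591, limma). Kcne5, listed as Kcne1l, was at 6.86 FPKM in wild-type replicate 2 and between 0.26 and 0.77 FPKM in the other 3 libraries. That library also held skeletal muscle markers at a summed 512.1 FPKM, against 2.1 to 5.2 FPKM in the others, and whether muscle RNA adds to the Kcne5 value was not tested. Without wild-type replicate 3, Kcne4 was called higher (adjusted p = 0.0476) and Kcne5 lower (0.00446). Of 10 muscle genes, 0 passed with all libraries and 10 were called lower without wild-type replicate 3.

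The receptors related to Esrrb were not called. Esrra, the broadly expressed estrogen-related receptor gene, was at 23.51 and 20.74 FPKM (wild type) against 17.94 and 16.97 FPKM (knockout; log2 fold change -0.32 ± 0.09, adjusted p = 0.126, limma). Esrrg varied more between the wild-type replicates, at 1.83 and 5.2 FPKM, than between genotypes, with 1.44 and 2.13 FPKM in the knockout. Coactivator gene Ppargc1a was at 4.09 and 5.89 against 3.16 and 3.04 FPKM (-0.53 ± 0.16), and Ncoa3 at -0.25 ± 0.08. In this list of 9 receptor and coregulator genes 0 passed in either direction, with a median of -0.25. That count is near the share over all genes tested, of which 4.43% were called in either direction. Without wild-type replicate 2, Esrrg and Ppargc1a were called lower (adjusted p = 0.0371 and 0.0441).

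Slc12a2, the NKCC1 gene, was not called. It was at 103.05 and 125.84 FPKM (wild type) and 114.28 and 114.41 FPKM (knockout), and its 95% interval ran from -0.27 to 0.28 on the log2 scale. Atp1b1, a sodium pump subunit gene, had a log2 fold change of 0.08 ± 0.07, and Atp1b2, the pump subunit gene enriched in marginal cells, of 0.26 ± 0.07 (adjusted p = 0.105, limma). Wnk4, a kinase gene of the pathway that regulates SLC12 cotransporters, rose from 15.39 and 15.2 FPKM to 25.49 and 24.42 FPKM (1.63-fold, adjusted p = 0.0134). Of 7 transport and kinase genes tested it was the 1 that rose, with 0 lower and a median of 0.08. Of all genes tested, 2.38% were called higher and 2.04% lower, so a list this short would often hold no call. Of 8 other marginal cell markers 0 passed, which is near those shares, with a median of 0.0021 on the log2 scale. Dach1, a transcription factor gene, was at 4.46 and 4.82 against 7.1 and 6.6 FPKM (adjusted p = 0.0639). Hmx2, a homeobox gene of the inner ear, had the largest log2 fold change of that list, at 1.13 and 0.89 against 2.62 and 1.65 FPKM (2.11-fold, log2 fold change 0.63 ± 0.19, adjusted p = 0.141, limma), with both knockout libraries above both wild-type libraries. Wnk2 was at -0.16 ± 0.08, and the other 5 lay between -0.11 and 0.09. Slc12a2 and the pump genes are also expressed by other cochlear cells, which whole-cochlea RNA does not separate.

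**Figure D3:**
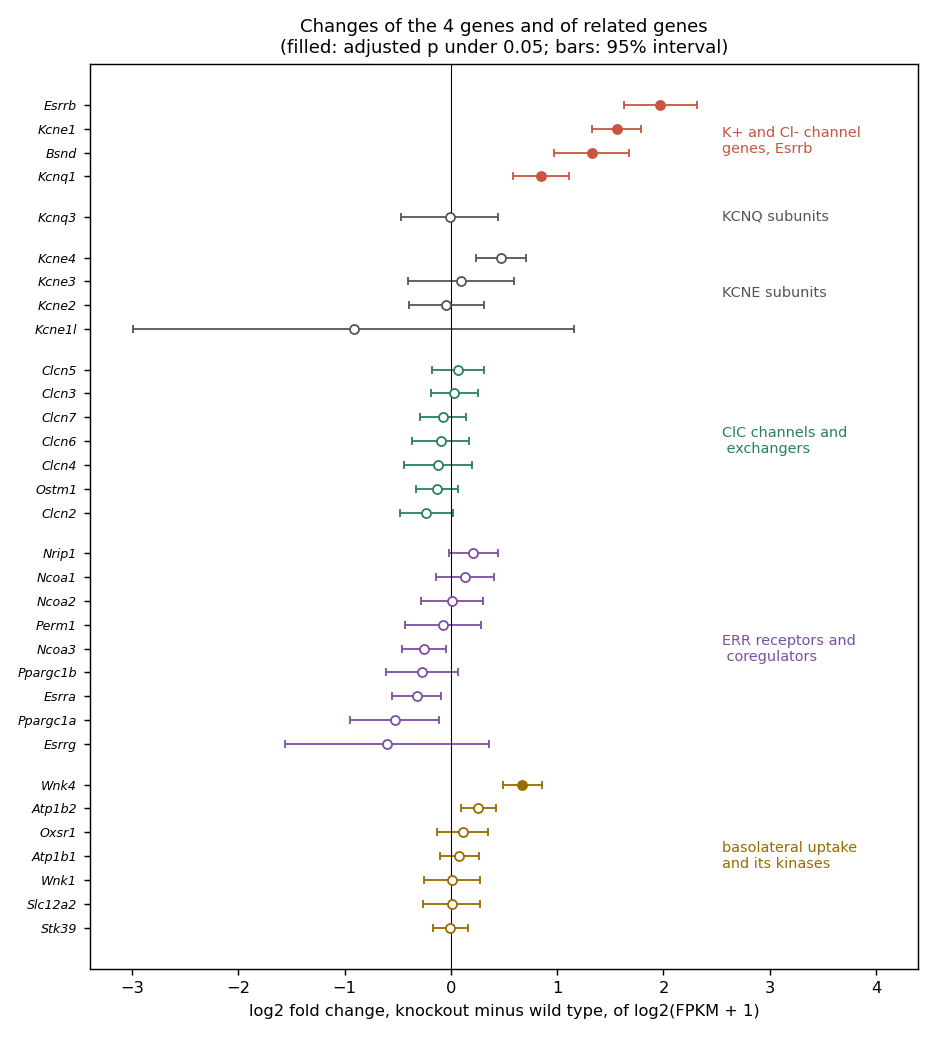
Log2 fold change (knockout minus wild type of log2(FPKM + 1), horizontal axis) with its 95% interval for the 4 genes, their families, receptor coregulators and basolateral uptake genes; filled points passed an adjusted p of 0.05. The 4 genes and Wnk4 are filled and lie to the right of 0, and the remaining genes are open.

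Among 11 tested regulators of the KCNQ1 and KCNE1 channel 0 rose and 1 fell, with a median of -0.06. Of all genes, 2.38% were called higher and 2.04% lower. Sgk1, a glucocorticoid-induced kinase gene that acts on many ion channels, fell from 144.05 and 170.77 FPKM to 101.79 and 102.54 FPKM (log2 fold change -0.61 ± 0.1, adjusted p = 0.0371, limma). It did not pass without wild-type replicate 3, without the filter on low values (adjusted p = 0.08, limma) or with no trend (0.0624). Nor did it pass without either knockout library. The ubiquitin ligase gene Nedd4l was at 0.3 ± 0.11, the adrenergic receptor gene Adrb1 at -0.44 ± 0.18, and the channel's kinase anchor gene Akap9 at 0.07 ± 0.1.

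Epithelial cells beside the stria that carry the anion exchanger pendrin were described with a list of 8 genes. Of 7 tested, 2 rose and 4 fell, with a median of -0.6, where 2.38% of all genes were called higher and 2.04% lower. Epyc, the most abundant of the list, was not called, at 1005.76 and 985.09 against 1032.19 and 1130.83 FPKM (log2 fold change 0.12 ± 0.09). P2rx2, among those that fell, did not pass without wild-type replicate 2. Its call was also lost without the filter on low values (adjusted p = 0.0629, limma) and with no trend (0.0501). Slc26a4, the pendrin gene, fell from 35.28 and 37.58 FPKM to 15.67 and 16.79 FPKM, and Kcnj16, Anxa1 and P2rx2 had log2 fold changes of -1.29 ± 0.09, -1.3 ± 0.07 and -0.6 ± 0.08. The genes that rose were the proton pump subunits Atp6v1b1, from 0.11 and 0.08 to 2.15 and 2.17 FPKM, and Atp6v0a4, from 1.53 and 1.65 to 4.99 and 4.43 FPKM. Atp6v1b1 passed the filter of 0.5 FPKM only through its knockout values. Foxi1, the transcription factor gene of proton-secreting inner ear cells, was at 0 to 0.02 FPKM in every library.

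Markers of neighbouring cells moved in the same libraries, in which 2.38% of all genes tested were called higher and 2.04% lower. Intermediate cell genes rose in 4 of 8 tested members, the pigment genes Dct, Tyr, Pmel and Mlana (log2 fold changes of 2.44 ± 0.08, 2.3 ± 0.1, 1.56 ± 0.15 and 1.96 ± 0.13). The receptor gene Kit fell from 14.07 and 17.29 to 7.95 and 9.31 FPKM (adjusted p = 0.0412), a call lost without wild-type replicate 3 (0.0733), without the filter (0.0895) and with no trend (0.0567). Kcnj10, Mitf and Sox10 were not called, at 0.04 ± 0.07, 0.16 ± 0.11 and -0.15 ± 0.12. The list's sum was 197.8 and 180.7 FPKM (wild type) against 374.6 and 355.4 FPKM (knockout). Dct made up most of that rise, at 37.83 and 34.64 against 208.82 and 192.67 FPKM. Basal cell genes had 1 of 4 higher, Cldn11, and 0 lower, with a median of -0.02. Cldn11 did not pass with either wild-type library left out, or after median-of-ratios rescaling (adjusted p = 0.0656, limma). Nor did it pass without the filter (0.08) or with no trend (0.0643). The fibrocyte list had 1 of 4 higher (Otor) and 2 lower (Coch and Slc4a11), with a median of -0.94, and after that rescaling 3 were lower. Myelin genes fell in 5 of 5 (Mbp, Pmp22, Prx, Mag and Egr2), from a sum of 2625.1 and 1424.2 FPKM to 226.9 and 349.5 FPKM, and in 3 of 5 without the filter on low values. Hair cell genes (0 of 6, median -0.29), endothelial and pericyte genes (0 of 5, median 0.02) and cardiac genes (0 of 2 tested, sum 2.3 to 4.7 FPKM) were not called.

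Kcnq1 and KCNE genes are expressed by vestibular dark cells and, in part, by choroid plexus, so markers of those tissues were read too. The shares called over all genes, 2.38% higher and 2.04% lower, stand beside their counts. Of 4 tested vestibular genes 1 rose and 1 fell (median -0.22), and their sum was 167.1 and 153.2 FPKM (wild type) against 425.3 and 331.1 FPKM (knockout). Oc90, an otoconial protein gene, made up most of it at 147.94 and 131.12 against 411.78 and 318.29 FPKM, while Otol1 fell, a call lost without either wild-type library, and Otop1 was at 1.9 and 4.48 against 0.57 and 1.34 FPKM. In the choroid plexus list 3 of 9 rose (2 without either wild-type library) and 2 fell (0 without wild-type replicate 3), with a median of 0.17, and the sum went from 171.6 and 175.2 FPKM to 479.1 and 436.8 FPKM. Ttr made up most of the rise, at 9.54 and 8.56 against 337.07 and 286.47 FPKM. Clic6 (2.11-fold) and Prlr, the prolactin receptor gene (5.88-fold in mean FPKM, adjusted p = 0.0392), also rose. Prlr averaged 0.215 FPKM in the wild type, so it passed the filter of 0.5 FPKM only through its knockout values. Kl and Sostdc1 fell, with log2 fold changes of -0.86 ± 0.14 (adjusted p = 0.0424) and -0.79 ± 0.12 (0.0316). Folr1, Otx2 and Kcnj13 were at -0.18 ± 0.14, 0.17 ± 0.21 and 0.21 ± 0.13, and Kcne2, the KCNQ1 partner gene of choroid plexus, at -0.04 ± 0.14. None of these marker genes was at 0 in all libraries, and their part in the changes of the 4 genes was not tested.

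Genes near each of the 4 were read as well. Of the neighbours read, 5 of 6 were tested for Kcnq1, 5 of 6 for Kcne1, 3 of 4 for Bsnd and 6 of 6 for Esrrb. Their calls stand beside shares over all genes tested of 2.38% higher and 2.04% lower. Cdkn1c, a cell cycle inhibitor gene in the imprinted domain that also holds Kcnq1, rose from 134.03 and 112.79 FPKM to 211.77 and 182.16 FPKM (1.6-fold, adjusted p = 0.0476, limma). Rescaling by the median of ratios ended that call (adjusted p = 0.0763, limma), as did leaving out wild-type replicate 3 or either knockout library. The call was also lost without the filter on low values (0.099) and with no trend (0.0735). Cd81, Tssc4, Trpm5 and Slc22a18, on the same stretch of chromosome 7, had log2 fold changes between 0.02 and 0.3, and none passed. Phlda2 was at most 0.15 FPKM.

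Near Kcne1, the chloride intracellular channel family gene Clic6 rose from 10.74 and 9.08 FPKM to 21.83 and 19.96 FPKM (2.11-fold, adjusted p = 0.0134). Rcan1, which lies between them, was at 0.22 ± 0.09, Runx1 at -0.02 ± 0.13 and Smim11 at 0.09 ± 0.14, and none passed. Close to Bsnd, Ttc22, which encodes a tetratricopeptide repeat protein, rose from 0.28 and 0.17 FPKM to 1.54 and 1.32 FPKM (adjusted p = 0.0264). Its wild-type mean was 0.225 FPKM, so it passed the filter of 0.5 FPKM only through its knockout values. At a filter of 1 FPKM it was not tested. Plpp3 and Usp24 did not pass (-0.23 ± 0.09 and 0.09 ± 0.13). Around Esrrb none of 6 passed, where 4.43% of all genes tested were called in either direction. Tgfb3, a growth factor gene, came nearest at 19.61 and 16.14 against 31.36 and 26.52 FPKM (adjusted p = 0.0578, and 0.0382 without wild-type replicate 2), and Vash1 on the other side was at -0.31 ± 0.09.

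**Figure D4:**
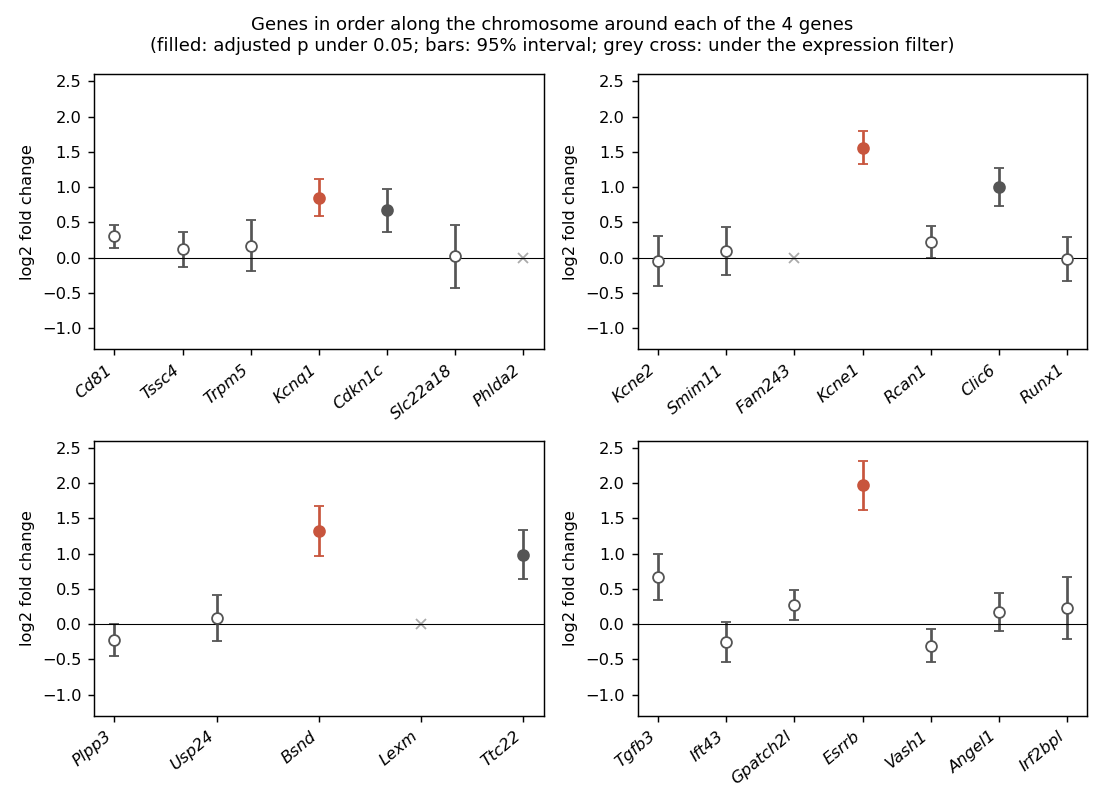
Log2 fold change with its 95% interval (vertical axis) of each of the 4 genes (red) and of up to 3 of the genes on either side, in order along the chromosome but not to distance and not always adjacent; filled points passed an adjusted p of 0.05 and grey crosses were under the filter. Cdkn1c, Clic6 and Ttc22 are the filled neighbours, and all 4 genes lie above every neighbour plotted beside them.

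The genes whose profiles lay closest to each of the 4 were found by Euclidean distance between log2(FPKM + 1) values centred on each gene's own mean, over 4 libraries and 13044 genes. This is a description, because the distance is set mostly by the same genotype difference. Near Kcnq1 were Perp, Rufy4, Tmem132a, Nid2 and Tll2, at distances of 0.06 to 0.08. Kcne1 was followed by Aldh1a7, Matn1, Atp6v1b1, Tspan10 and Pmel, at 0.07 to 0.17. For Bsnd the list was Spock1, Edn3, Oc90, Hgf and Necab2, at 0.14 to 0.19. Closest to Esrrb were Tectb at 0.18 and Dnase1, Slc6a14, Sema3c and Gpnmb at 0.25 to 0.29. Among the 4 genes themselves, Kcne1 and Bsnd were nearest to each other (0.3) and Kcnq1 and Esrrb farthest apart (1.12).

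Esrrb was the 1 gene of the 4 with promoter sequence in the RefSeq table used here (GRCm38.p6), where it has 2 annotated starts. The 250 bases before each start are shown because Esrrb had the largest change of the 4 and because its own product binds a known DNA element. Both are on the plus strand of chromosome 12, chr12:86360867-86361116 and chr12:86421394-86421643.
Esrrb start A: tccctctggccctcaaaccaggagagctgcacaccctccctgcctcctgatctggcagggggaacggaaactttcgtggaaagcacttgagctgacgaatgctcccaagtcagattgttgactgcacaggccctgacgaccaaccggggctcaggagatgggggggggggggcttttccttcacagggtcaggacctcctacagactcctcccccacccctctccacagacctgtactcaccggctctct
Esrrb start B: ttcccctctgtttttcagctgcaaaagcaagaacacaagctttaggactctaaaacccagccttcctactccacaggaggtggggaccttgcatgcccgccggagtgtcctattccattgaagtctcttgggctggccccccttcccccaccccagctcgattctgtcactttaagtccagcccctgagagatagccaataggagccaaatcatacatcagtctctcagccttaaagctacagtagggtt

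The estrogen-related receptor element was searched on both strands as TCAAGGTCA and as its shorter form AAGGTCA, which it contains. Neither string occurs in either window, so no base is in capitals. Of 32851 such windows in the table, 4.08% held the shorter form and 0.39% the longer one. The windows had 60.8% and 52.0% G and C, beside a median of 52.4% over all windows, and 6 and 3 CpG dinucleotides beside a median of 6. Because FPKM is summed over a gene, the data do not show which start the added Esrrb transcripts used.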

How the data were processed

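The authors deposited 1 table per library of FPKM values with 2 decimals, per the file headers. The submitters' processing notes list RSEM 1.2.12, Bowtie2 2.2.5, HISAT2 2.0.4 and mm10 (GRCm38) with no roles; strand use was not given in the sources used here. Each library's own column was read, and 4 other FPKM columns, which repeat wild-type replicate 2, were not used. Symbols were looked up by NCBI gene ID (20705 of 20777 matched RefSeq). A gene was tested if its 4 values averaged 0.5 FPKM or more. The test was limma 3.58.1 (R 4.3.3) on log2(FPKM + 1), with a genotype term and an intensity trend. P-values are two-sided, Benjamini-Hochberg adjusted over all 13966 genes, with a threshold of 0.05. Of these genes 618 passed, 333 higher and 285 lower; median-of-ratios rescaling made that 243 and 355. The fit was tested on simulated data.

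The 4 genes, the 18 lists (121 entries, 120 with a value, 111 tested) and the rule for named genes were chosen with earlier results of these data known. Named are list members past the threshold, up to 3 with the smallest p in lists with at most 1 such member, up to 3 genes on either side of each gene, and 5 of the closest profiles. A ratio planned for Bsnd and some list members, neighbours and close profiles are not reported here. Other list members named were chosen after their values were seen. Lists are described by counts and medians only. Exon overlaps come from GENCODE vM21. Depth was estimated as the number of fragments at which low FPKM values of 5255 genes with 1 transcript became whole (within 0.15): 18050000 to 19250000, with 65.4% to 68.5% whole where chance gives 30%. Summed FPKM ran from 391808 to 405144. Counting errors cover counting only. The replicates of each genotype differed over 2-fold in 258 (wild type) and 78 (knockout) genes.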

Additional observations from a re-analysis of the deposited data

How the results depend on the processing

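The 4 genes were higher in the knockout under every alternative run. Without any 1 library the log2 fold change ran from 0.74 to 0.96 for Kcnq1, 1.48 to 1.64 for Kcne1, 1.18 to 1.47 for Bsnd, 1.82 to 2.12 for Esrrb and -0.51 to -0.48 for Zbtb20. Calls then ran from 1 to 580, from 1 to 272 higher and from 0 to 345 lower; the lowest, 1 call, came without either knockout library, when 1615 (replicate 2 left out) and 1782 genes were below 0.05 unadjusted. Without the filter there were 266 calls, 159 higher and 107 lower, and Kcnq1 (0.85, adjusted p = 0.0525) and Zbtb20 (-0.49, 0.0766) lost theirs; more genes are then tested. The replicate numbers name no shared animal or litter, although the deviations of same-numbered libraries correlated across genes (r = 0.403). With the replicate block there were 2353 calls, 1362 higher and 991 lower, and all 4 genes passed. With 1 added to each FPKM the difference in log2 ratio of Kcne1 to Kcnq1 was 0.71, and without any 1 library it ran from 0.71 to 0.84. A pseudocount of 0.1, a filter at a mean of 1 FPKM, rescaling and a fit with no trend kept the calls of the 4 genes. Bsnd averaged 0.805 FPKM in the wild type, so it passed the filter of 1 FPKM only through its knockout values. Low depth limits Bsnd most.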

Other observations

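Shares within gene families were computed for Esrrb and Kcne1 after the values were seen. Esrrb made up 16.2% and 13.8% of the summed FPKM of Esrra, Esrrb and Esrrg in wild-type libraries, against 54.3% and 49.1% in knockout libraries. That sum was 30.24 and 30.1 FPKM (wild type) against 42.42 and 37.54 FPKM (knockout), so Esrra gave the most transcript of the 3 receptors in both wild-type libraries and Esrrb in both knockout libraries. Kcne1 was 24.8% and 26.4% of the summed KCNE transcripts in wild-type libraries, against 48.3% and 47.4%. Kcne5 made up 20.1% of that sum in wild-type replicate 2, which lowers the Kcne1 share there, and 0.91% to 1.41% in the others. These shares rest on 2 libraries per genotype and were not tested.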
